A study of Mus musculus with 12 samples.

Results

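Interleukin-10 (IL-10) and the genes that carry its signal in macrophages were followed in an RNA-seq experiment on an enhancer deletion near Tnf. The set held 7 genes of the 48526 in the count table. They were the cytokine gene Il10, its receptor chains Il10ra and Il10rb, the transcription factor gene Stat3, and the downstream genes Socs3, Bcl3 and Nfil3. All 7 passed the filter on low counts that left 15523 genes for testing. The set was chosen by symbol for pathway roles, but with earlier results of the same libraries known. Il10 had then already been singled out on its measured values, so its genotype differences are given as a description, without a p-value. Libraries came from total RNA of macrophages (BMDMs) that had been differentiated from mouse bone marrow in medium conditioned by L929 cells. Wild-type (WT) mice and mice labelled HSS9 KO, homozygotes, were compared, where HSS9 names an enhancer located upstream of Tnf. The deletion is germ line and carried by every cell type, and the KO mice were kept as homozygous pairs. The labels call the WT mice littermates whereas the methods describe purchased C57BL/6 mice, so a difference of substrain or colony cannot be told apart from the deletion. All mice were adult males according to the methods. BMDMs were exposed for 6 hr to lipopolysaccharide (LPS), an outer-membrane component of bacteria, or to PBS (UT), the buffer control. This made 4 groups of 3 libraries: WT LPS, KO LPS, WT UT and KO UT. Nothing in the labels states whether the 3 libraries of a group came from separate mice, so p-values measure the spread between libraries, which may be technical.

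IL-10 is a secreted cytokine with which activated macrophages restrain their own inflammatory output. It binds a receptor of 2 chains, IL-10RA, which is particular to it, and IL-10RB, which is shared with related cytokines. The receptor acts through the kinases JAK1 and TYK2 on the transcription factor STAT3, which switches on anti-inflammatory genes. SOCS3 is a feedback inhibitor of cytokine receptors, BCL3 is an atypical inhibitor of the NF-kB family, and NFIL3 is a repressor with a known role in limiting Il12b.

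Library totals ranged from 26154533 to 36423921 counts. The 3 WT LPS libraries were the furthest apart, with a chi-square per degree of freedom between libraries of 12.4 to 46.3, highest for the first against the third, beside 3.81 to 14.0 in the other groups. Levels are given as CPM, in which counts are set relative to library size with TMM factors. The macrophage markers were present in every group, with 8 of 8 at a mean of 1 CPM or more and summed levels between 26401 and 34284 CPM. Of these 8, 5 were higher and 1 was lower in KO without LPS, and 5 were higher and 0 lower with LPS. The T cell list reached at most 0.318 CPM summed over 6 genes in every library, and Ly6g, which defines neutrophils, was at 0. Other lists moved with genotype. The neutrophil list (6 genes) summed to 18.4 to 19.8 CPM in WT UT and to 40.7 to 46.1 CPM in KO UT, where 4 of its 5 tested genes were higher. The B cell list summed to 19.2 to 21.8 CPM in WT UT and to 38.2 to 40.2 CPM in KO UT, nearly all of it Ighm. The stromal list summed to 2.07 to 4.29 CPM in WT LPS and to 7.13 to 8.49 CPM in KO LPS, with 4 of 5 tested genes higher. The dendritic and mast cell lists summed to at most 6.38 and 3.69 CPM in any library. The part of these other cell types in the differences below was not tested. In bulk RNA, fewer cells of a type and less RNA per cell cannot be told apart.

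Il10 (ENSMUSG00000016529) lies on the plus strand of GRCm38 at chr1:131019845-131024974, and no other annotated gene overlaps it. Without LPS it was a low gene. The raw counts were 210, 197 and 244 in WT UT and 323, 269 and 344 in KO UT. These gave 4.91, 4.35 and 5.19 CPM in WT UT against 9.34, 7.90 and 8.70 CPM in KO UT. All KO UT libraries were above all WT UT libraries, and the group means were 4.82 ± 0.429 and 8.65 ± 0.720 CPM (SD, n = 3 each). The KO level was 1.80 times the WT level, a log2 fold change of 0.84 with an SE of 0.0903.

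After LPS the order was turned round. Il10 stood at 143, 161 and 144 CPM in WT LPS and at 99.7, 102 and 95.6 CPM in KO LPS. The lowest WT LPS library was above the highest KO LPS library, with group means of 149 ± 10.5 and 99.1 ± 3.28 CPM (SD, n = 3 each). The KO level was 0.664 of the WT level, a log2 fold change of -0.59 with an SE of 0.0643. Over 20 alternatives, leaving out each library in turn among them, it stayed between -0.63 and -0.53. Within each of the 3 batches named in the labels, KO was above WT without LPS (log2 differences of 0.75 to 0.93) and below WT with LPS (-0.66 to -0.52). Since the genotypes did not overlap in either treatment, any pairing of libraries gives these signs, so the batches add no support. The 4 groups therefore stood in the order WT UT, KO UT, KO LPS and WT LPS, and no neighbouring groups overlapped.

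**Figure D1:**
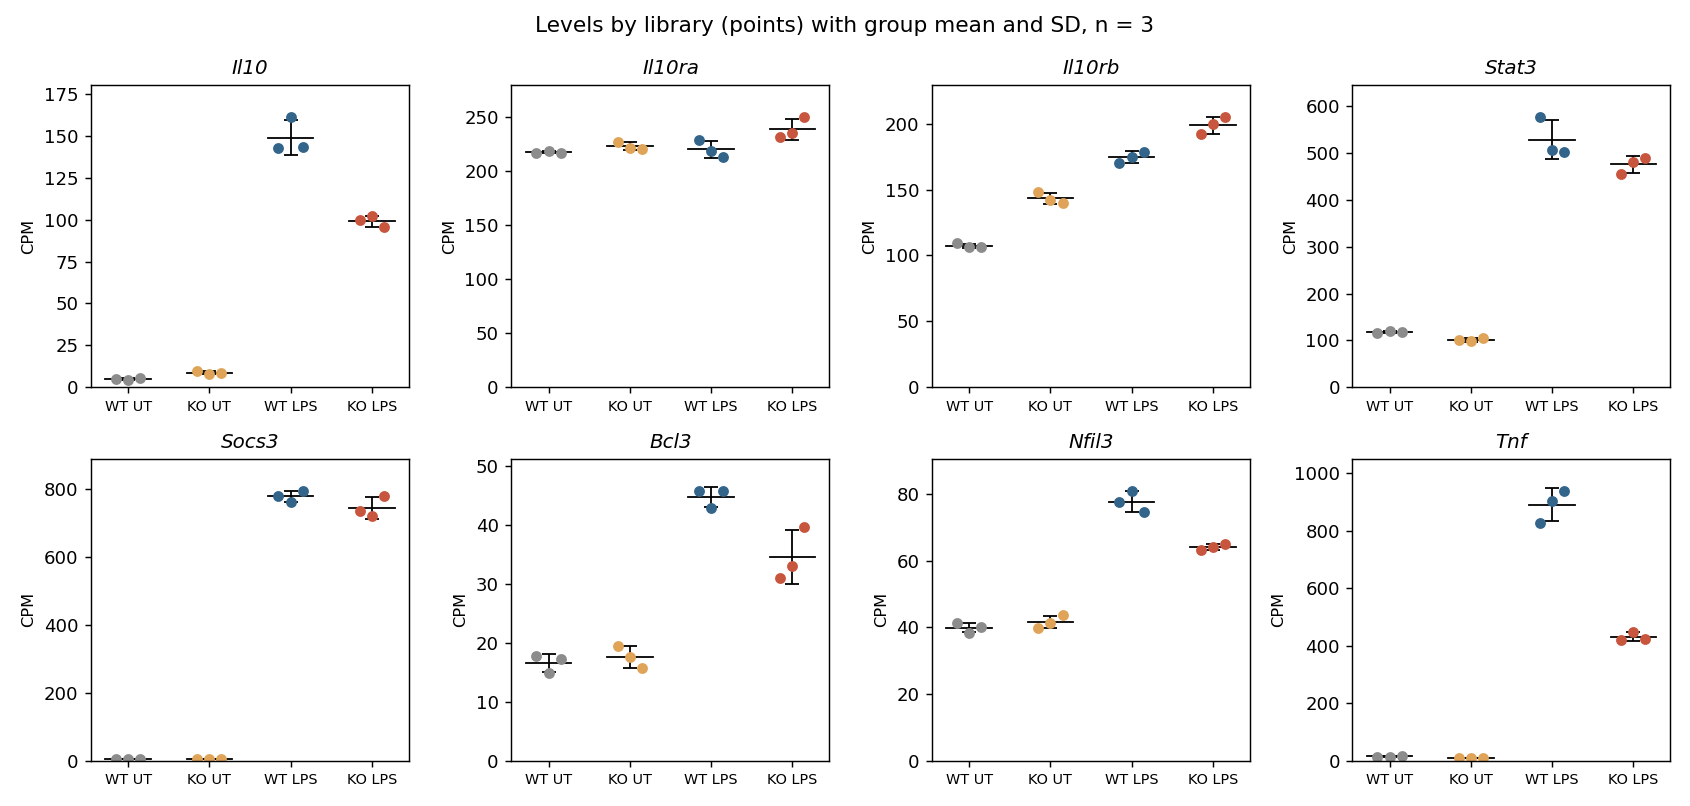
CPM (linear axis from 0) of the 7 genes and of Tnf in each library, one point per library, with group mean (line) and SD (bar), n = 3 per group. Il10 was higher in KO than in WT without LPS (8.65 against 4.82 CPM) and lower with LPS (99.1 against 149 CPM), whereas Il10ra stayed between 213 and 250 CPM in every library.

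Both genotypes induced Il10 with LPS. The mean rose 31.0-fold in WT, a log2 fold change of 4.95 with an SE of 0.0816. In KO it rose 11.5-fold, a log2 fold change of 3.52 with an SE of 0.0769. The LPS response of KO was thus smaller by 1.43 on the log2 scale (interaction -1.43, SE 0.111). It was the only one of the 7 genes whose interaction exceeded 1 on the log2 scale. Of all tested genes, 2.16% exceeded that size and passed at an adjusted p below 0.05, a share from which nothing is read for Il10.

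Tnf, the gene beside the deleted enhancer (chr17:35199381-35202007), was lower in KO in both conditions and did not cross over. Without LPS it stood at 14.8 to 16.2 CPM in WT and at 9.10 to 10.5 CPM in KO. After LPS it stood at 826, 905 and 938 CPM in WT and at 422, 450 and 425 CPM in KO. The log2 fold changes were -0.66 (SE 0.0732) and -1.04 (SE 0.0604). The ratio of Il10 counts to Tnf counts in the same library needs no scaling between libraries. It was 0.314 ± 0.0218 in WT UT and 0.896 ± 0.126 in KO UT, and 0.168 ± 0.0133 in WT LPS and 0.229 ± 0.00601 in KO LPS (SD, n = 3 each). The ratio was higher in every KO library than in every WT library of the same treatment. An exact two-sided permutation test on 3 against 3 libraries cannot give a p below 0.10. With LPS, Il10 stood at 0.664 of its WT level in KO and Tnf at 0.486, and the higher ratio follows from these values. Without LPS, Il10 was higher and Tnf lower in every KO library, which fixes the order of the ratio. The ratio is therefore no separate result about Il10.

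**Figure D2:**
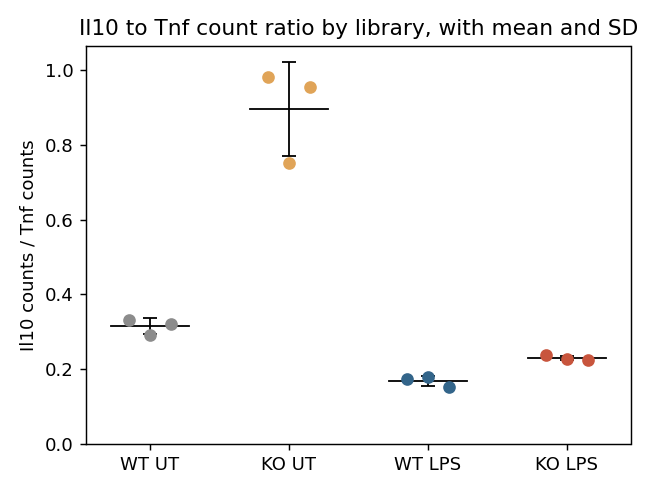
Ratio of Il10 counts to Tnf counts (linear axis from 0) in each library, with group mean (line) and SD (bar), n = 3 per group. The KO libraries lie above the WT libraries of the same treatment, at means of 0.896 against 0.314 without LPS and 0.229 against 0.168 with LPS.

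The receptor chains behaved differently from the ligand and from each other. Il10ra (chr9:45253837-45269149, minus strand) was the most even member. Its group means were 218 ± 1.07 CPM in WT UT, 223 ± 3.70 in KO UT, 220 ± 7.81 in WT LPS and 239 ± 9.70 in KO LPS (SD, n = 3 each). The edgeR adjusted p was 0.792 for the LPS response in WT and 0.0866 in KO. In KO the response passed as an increase with DESeq2 (0.14 on the log2 scale, adjusted p 0.00579), with RLE scaling (0.0225) and with scaling on protein-coding genes (0.0181). The KO against WT difference was 0.03 (SE 0.0515, edgeR adjusted p 0.707) without LPS and 0.12 (SE 0.0519, edgeR adjusted p 0.141) with LPS on the log2 scale. With TMM scaling KO libraries were all above WT libraries in both conditions, but without LPS the fitted difference turned to -0.040 with DESeq2 and with RLE scaling. Leaving out the first WT LPS library brought the LPS comparison to an edgeR adjusted p of 0.0489, and leaving out the third KO LPS library to 0.380. Its sign for LPS in WT was not settled, since it turned with the scaling.

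Il10rb (chr16:91406164-91425834, plus strand) rose with LPS and was higher in KO in both conditions. It stood at 109, 106 and 107 CPM in WT UT and at 148, 142 and 140.0 CPM in KO UT. After LPS it stood at 170.0, 175 and 179 CPM in WT and at 192, 199 and 205 CPM in KO. From low to high the order was WT UT, KO UT, WT LPS, then KO LPS, and no neighbours overlapped. The genotype difference was 0.42 on the log2 scale without LPS (SE 0.0521, edgeR adjusted p 5.33e-06) and 0.19 with LPS (SE 0.0521, edgeR adjusted p 0.0200). The second call was lost without the second KO LPS library (0.0551), the third KO LPS library (0.0801) or the second WT LPS library (0.0518), with scaling on protein-coding genes (0.0515) and in the fit on the compared groups only (0.0715). LPS raised Il10rb by 0.70 in WT (edgeR adjusted p 7.62e-11) and by 0.47 in KO (edgeR adjusted p 4.59e-08). The interaction of -0.23 (SE 0.0736, edgeR adjusted p 0.0368) was lost in 13 of 19 alternatives, the replicate block among them (adjusted p 0.0698). Another protein-coding gene model, Gm21970, overlaps Il10rb on the same strand, and Gm20612 and Mir7086 overlap Il10ra, so counts of both chains may hold reads of these.

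Stat3 (chr11:100885098-100939540, minus strand), the transcription factor of the pathway, was induced in both genotypes. Its level was 118 ± 1.76 CPM in WT UT, 101.4 ± 4.03 in KO UT, 528 ± 41.7 in WT LPS and 476 ± 17.9 in KO LPS (SD, n = 3 each). The LPS response was 2.17 on the log2 scale in WT (SE 0.0612, edgeR adjusted p 2.37e-18) and 2.23 in KO (SE 0.0616, edgeR adjusted p 1.48e-18), with an interaction of 0.07 (SE 0.0834, edgeR adjusted p 0.661). KO was lower by a log2 fold change of -0.22 without LPS (SE 0.0595, edgeR adjusted p 0.0104). This call was lost without the second KO UT library (adjusted p 0.0623). With LPS the difference was -0.15 (SE 0.0585, edgeR adjusted p 0.0897), and it passed without the third WT LPS library (0.0485), with upper-quartile scaling (0.0300), with scaling on protein-coding genes (0.0280) and with a filter at a mean of 1 CPM (0.0467). Without the first WT LPS library, which stood at 576 CPM against 507 and 502 in the others, it was -0.083. Within batches it was -0.34, -0.072 and -0.035. The libraries of WT and KO did not overlap in either condition. Stat5a overlaps Stat3 on the other strand, and it is not stated whether the counting used strand.

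Socs3 (chr11:117966079-117970047, minus strand) had the steepest LPS response of the 7. It stood at 5.29, 5.93 and 4.19 CPM in WT UT and at 4.63, 4.64 and 4.48 CPM in KO UT. After LPS it stood at 778, 762 and 794 CPM in WT and at 734, 719 and 778 CPM in KO. The groups overlapped between genotypes in both conditions. LPS raised it by 7.24 on the log2 scale in WT (SE 0.0925, edgeR adjusted p 4.62e-24) and by 7.34 in KO (SE 0.0945, edgeR adjusted p 4.60e-24). The genotype difference was -0.16 without LPS (SE 0.0999, edgeR adjusted p 0.266) and -0.07 with LPS (SE 0.0669, edgeR adjusted p 0.570). The unstimulated difference was -0.29 without the third WT UT library (adjusted p 0.0219) and -0.045 without the second (0.824), and within batches it was -0.19, -0.35 and 0.096.

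Bcl3 (chr7:19808462-19822770, minus strand) and Nfil3 (chr13:52967209-52981073, minus strand) were lower in KO after LPS and did not pass the test without it. Bcl3 stood at 17.8, 14.9 and 17.3 CPM in WT UT and at 19.5, 17.6 and 15.8 CPM in KO UT, where the genotypes overlapped. After LPS it stood at 45.7, 42.8 and 45.7 CPM in WT and at 31.0, 33.0 and 39.6 CPM in KO, with all KO libraries below all WT libraries. The difference was -0.37 on the log2 scale with LPS (SE 0.0911, edgeR adjusted p 0.00898) and 0.08 without (SE 0.0951, edgeR adjusted p 0.590). Without the first KO LPS library the LPS difference was -0.30 (adjusted p 0.0648). Antisense gene models, Gm16175 and Gm16174, overlap Bcl3.

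Nfil3 stood at 41.2, 38.5 and 40.1 CPM in WT UT and at 39.8, 41.4 and 43.6 CPM in KO UT. After LPS it stood at 77.6, 80.9 and 74.7 CPM in WT and at 63.1, 64.2 and 65.0 CPM in KO. The genotypes overlapped without LPS and were apart with it. The difference was -0.28 with LPS (SE 0.0566, edgeR adjusted p 0.00221) and 0.06 without (SE 0.0569, edgeR adjusted p 0.493). Of the downstream genes, Nfil3 was the one whose LPS call held in all 20 alternatives. LPS raised Bcl3 by 1.43 in WT and 0.97 in KO, and Nfil3 by 0.96 and 0.62 (edgeR adjusted p between 1.27e-12 and 6.01e-09). The LPS response was smaller in KO for both, with an interaction of -0.46 for Bcl3 (SE 0.132, edgeR adjusted p 0.0206) and -0.34 for Nfil3 (SE 0.0802, edgeR adjusted p 0.00536). The Bcl3 interaction was lost without the first KO LPS library (0.0666), the second KO LPS library (0.0528), the first KO UT library (0.0808) or the second WT UT library (0.0712).

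**Figure D3:**
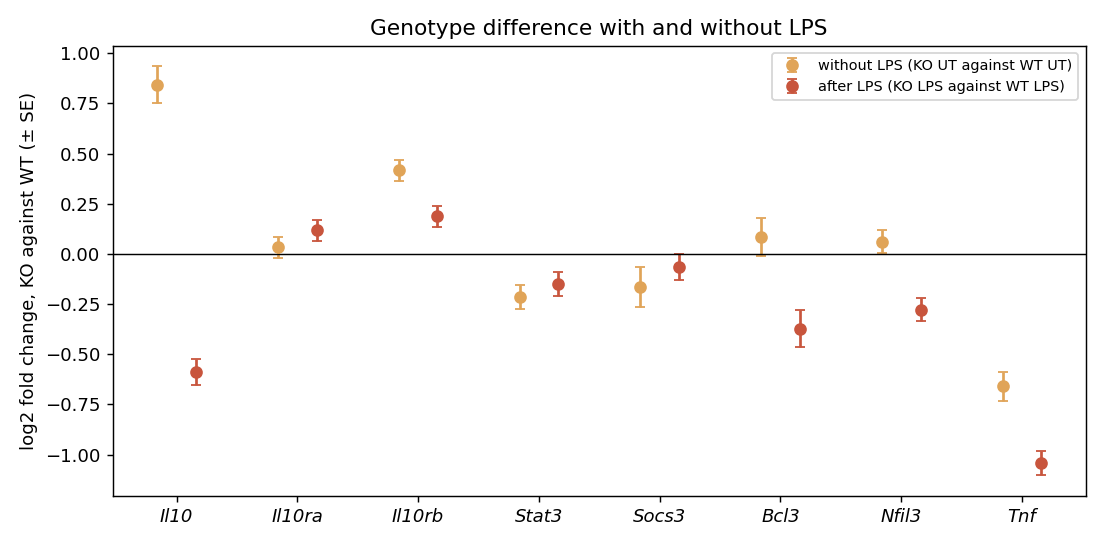
Fitted log2 fold change of KO against WT (± SE, linear axis) for the 7 genes and Tnf without LPS and with LPS, 3 libraries per group. Il10 changes sign, from 0.84 to -0.59, Bcl3 and Nfil3 are near 0 without LPS and at -0.37 and -0.28 with it, and Tnf is below 0 in both.

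The bases ahead of the start sites of the downstream genes are shown because these genes shared an LPS induction but not a genotype difference. RefSeq start sites on GRCm38.p6 were matched for Socs3, Bcl3, Nfil3 and Stat3, 4 of the 7 genes. The window of 250 bases before each start was searched on both strands for the STAT motif TTCNNNGAA and for the NF-kB motif. The sequences read 5′ to 3′ in the direction of the gene and carry the STAT match in capitals. Of each window the longest run outside the exons annotated by GENCODE is printed. The RefSeq start of Socs3 lies within the GENCODE gene, of which 1 transcript begins further upstream, so its run falls in an intron of that transcript.
Socs3, chr11:117969452-117969616, minus strand: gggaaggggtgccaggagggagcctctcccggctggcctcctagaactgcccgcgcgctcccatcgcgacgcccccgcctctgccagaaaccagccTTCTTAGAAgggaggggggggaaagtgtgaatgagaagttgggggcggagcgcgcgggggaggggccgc
Bcl3, chr7:19822771-19823005, minus strand: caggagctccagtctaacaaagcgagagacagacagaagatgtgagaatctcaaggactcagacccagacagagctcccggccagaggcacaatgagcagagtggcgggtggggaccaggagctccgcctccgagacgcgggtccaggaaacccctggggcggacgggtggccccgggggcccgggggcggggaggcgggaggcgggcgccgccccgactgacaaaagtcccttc
Nfil3, chr13:52981074-52981289, minus strand: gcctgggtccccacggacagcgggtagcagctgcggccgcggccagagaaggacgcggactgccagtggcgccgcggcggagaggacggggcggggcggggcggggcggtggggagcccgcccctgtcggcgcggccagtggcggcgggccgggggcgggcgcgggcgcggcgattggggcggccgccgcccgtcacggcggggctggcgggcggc
The Socs3 window held 1 STAT match, which began 154 bases before the start site. The windows of Bcl3, Nfil3 and Stat3 held 0, and 0 of the 4 windows held the NF-kB motif. Among 32817 RefSeq promoters, 7.01% held the STAT motif and 7.25% the NF-kB motif within the same length. A match is a description of the letters and no measurement of binding.

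Il10 is left out of the counts between genotypes because its differences are a description. Of the other 6 genes, 3 passed the test after LPS between genotypes, 1 higher (Il10rb) and 2 lower (Bcl3 and Nfil3), where 14.3% of all tested genes passed, 7.78% higher and 6.54% lower. The count was 2 without any one of the KO LPS libraries or the second WT LPS library, and in the fit on the compared groups only. It was 4 without the first or the third WT LPS library, with upper-quartile scaling and with a filter at a mean of 1 CPM. With scaling on protein-coding genes 0 were higher and 3 lower. Of the 6, 5 had libraries that did not overlap between genotypes, against 29.1% of all tested genes. Without LPS 2 passed, Il10rb higher and Stat3 lower, beside 23.8% of all tested genes, 14.1% higher and 9.69% lower, and 3 of 6 did not overlap, beside 40.8%. The count of 2 became 1 without the second KO UT library and 3 without the third WT UT library. No member reached an absolute log2 fold change of 1 between genotypes, a size that 1.25% of tested genes passed with LPS and 1.82% without. LPS raised 6 of the 7 in each genotype, beside 38.0% of tested genes in WT and 35.1% in KO. The increase exceeded 1 on the log2 scale for Il10, Stat3, Socs3 and Bcl3 in WT and for Il10, Stat3 and Socs3 in KO, beside 37.8% and 37.0% of tested genes in either direction. In the interaction 3 of the 6 passed (Il10rb, Bcl3 and Nfil3), all of them smaller responses in KO, where 9.50% of tested genes passed in that direction and 7.32% in the other. That count was 1 without the first or the second KO LPS library, the first KO UT library or the second WT UT library. Scaling moved the whole-table splits. Calls that were higher in KO UT made up 59.4% with TMM and 38.6% with RLE scaling, those higher in KO LPS 54.3% with TMM and 40.2% with scaling on protein-coding genes, and those of a more positive LPS change in KO 43.5% with TMM and 63.5% with RLE scaling. These shares are read as a description, since the set was chosen with results known.

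**Figure D4:**
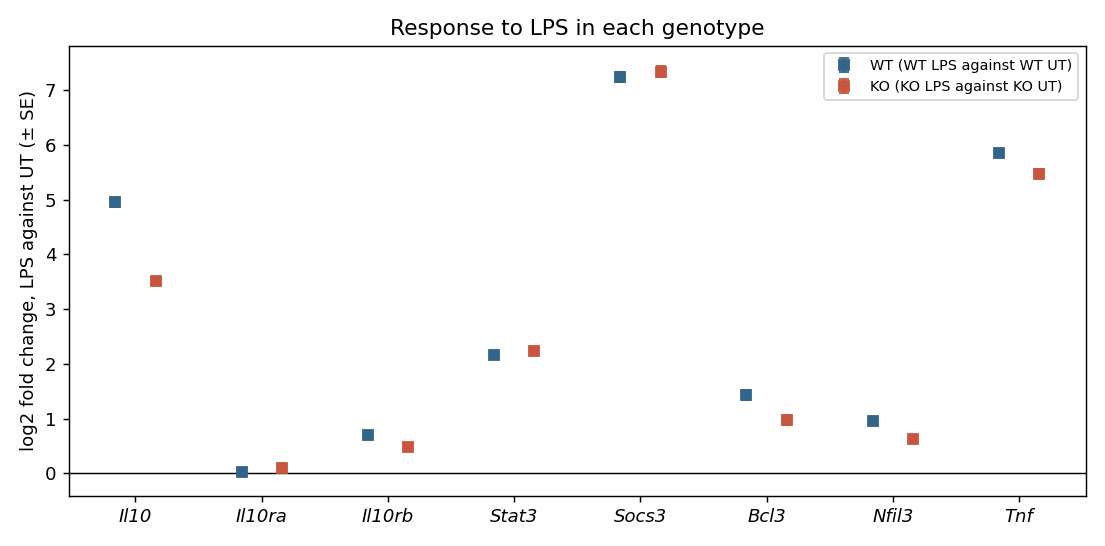
Fitted log2 fold change of LPS against UT (± SE, linear axis) for the 7 genes and Tnf in WT and in KO, 3 libraries per group. Socs3 rose most in both genotypes (7.24 and 7.34), Il10 rose by 4.95 in WT and 3.52 in KO, and Il10ra stayed near 0.

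Divided by the length of their annotated exons, levels can be compared only roughly between genes. The exons are those of all annotated transcripts together, and the counting of reads in overlapping genes is not stated. The places of Il10ra, Il10rb, Stat3 and Bcl3, each overlapped by another gene model, are therefore not settled. In WT LPS Socs3 was highest at 269 ± 5.37 CPM per kb, followed by Il10 at 114 ± 8.01, Il10ra at 62.9 ± 2.23, Stat3 at 55.5 ± 4.38, Il10rb at 45.8 ± 1.16, Nfil3 at 38.4 ± 1.52 and Bcl3 at 18.1 ± 0.680 (SD, n = 3 each). In KO LPS Socs3 (257 ± 10.7) and Il10 (75.7 ± 2.51) again led, Il10ra (68.3 ± 2.77) came next, and Il10rb (52.2 ± 1.72) stood above Stat3 (50.0 ± 1.88), a pair whose SDs overlapped. Without LPS the receptor chains led, with Il10ra at 62.3 ± 0.306 CPM per kb in WT UT and 63.7 ± 1.06 in KO UT, and Il10 at 3.68 ± 0.328 and 6.60 ± 0.550.

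The wider pathway was described with 6 lists of 79 other genes, of which 73 were tested. Between genotypes after LPS 29 passed, 14 higher and 15 lower in KO, beside 14.3% of all tested genes, 7.78% higher and 6.54% lower. The split was 8 to 21 with scaling on protein-coding genes, 12 to 20 with upper-quartile scaling and 17 to 11 with no filter on low counts. It was 20 to 15 without the first WT LPS library and 7 to 16 without the third. Without LPS 23 passed, 4 higher and 19 lower, or 2 and 27 with RLE scaling, beside 23.8% of all tested genes, 14.1% higher and 9.69% lower. In the interaction 20 passed, with a more positive LPS change in KO for 14 and a less positive one for 6, beside 7.32% and 9.50% of all tested genes. The split was 24 to 6 with DESeq2 and 23 to 6 with RLE scaling, and 15 to 28 genes passed when one library was left out. The median log2 fold change over the 73 was -0.05 with LPS and -0.07 without, beside -0.01 and 0.00 over all tested genes. Calls past a log2 fold change of 1 were made for Tnf with LPS, for Cxcl1 and Nos2 without LPS, and for Cxcl1 in the interaction. That for Nos2 rests on no more than 11 counts in any UT library and was lost in 8 alternatives.

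The neighbours of Il10 in its cytokine cluster held 8 genes, of which 4 were tested. Il19, a cytokine of the IL-10 family, was near 0 without LPS and reached 65.8 CPM in WT LPS and 52.6 CPM in KO LPS (-0.32 on the log2 scale, SE 0.0768, edgeR adjusted p 0.00716). It was the only tested neighbour that passed between genotypes with LPS.

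Known regulators of Il10 transcription formed a list of 20 genes, all tested. With LPS 6 were higher in KO and 1 lower, a split of 3 to 4 with scaling on protein-coding genes. In all 4 passed without any one of the KO LPS libraries or the second WT LPS library. Maf, an activator of Il10, was at 368 CPM in KO LPS against 278 in WT LPS (0.41 on the log2 scale, SE 0.0876, edgeR adjusted p 0.00370). Maf was thus higher in the group in which Il10 was lower, and a link between them was not tested. Without LPS 1 of the 20 was higher and 4 were lower, or 1 and 8 with DESeq2 and 0 and 8 with RLE scaling. Among the 4 was Sp1, a general activator, at 71.5 CPM in KO UT against 87.6 in WT UT (-0.29, SE 0.0898, edgeR adjusted p 0.0207). The call for Sp1 was lost when any one of the UT libraries other than the third of KO UT was left out (0.0502 to 0.119).

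Of 10 related receptors and kinases 8 were tested. With LPS 2 were higher in KO, Il6ra and Jak1. Il6ra, the receptor of IL-6, which also signals through STAT3, was higher in KO LPS (70.01 against 54.6 CPM, log2 fold change 0.36, SE 0.0610, edgeR adjusted p 4.93e-04) and lower in KO UT (76.2 against 97.6 CPM, -0.36, SE 0.0581, edgeR adjusted p 9.38e-05). Jak1, a kinase of the IL-10 receptor, was at 374 against 321 CPM with LPS (0.22, SE 0.0676, edgeR adjusted p 0.0362), a call lost without the third KO LPS library (0.148), the second or the third WT LPS library (0.136 and 0.144) and with the replicate block (0.0650), among others. Tyk2, the other kinase, did not pass, at 144 against 157 CPM (-0.12, SE 0.0579, edgeR adjusted p 0.176).

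STATs and inhibitors of cytokine signalling held 18 genes. Without LPS 7 passed, all of them lower in KO, and 4 without the second WT UT library. Among them was Stat2, which carries interferon signals (86.2 against 144 CPM, log2 fold change -0.74, SE 0.0494, edgeR adjusted p 9.04e-10). With LPS 2 were higher and 4 lower, or 1 and 5 with upper-quartile scaling. These 6 calls became 1 without the second WT LPS library, and 3 without the third WT LPS library or any one of the KO LPS libraries. The lower ones included the feedback inhibitors Cish (2.34 against 4.32 CPM, -0.89, SE 0.207, edgeR adjusted p 0.00618) and Socs1 (28.9 against 36.6 CPM, -0.34, SE 0.0842, edgeR adjusted p 0.0100). The Socs1 call was lost without the second (0.0644) or the third (0.0521) WT LPS library. Ptpn6, a phosphatase (0.16, SE 0.0533, edgeR adjusted p 0.0440), and Stat2 (-0.15, SE 0.0481, edgeR adjusted p 0.0426) passed narrowly with LPS and lost the call in most alternatives, with values up to 0.121 and 0.255.

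Of 13 genes that IL-10 is known to induce, 3 were higher and 3 lower in KO with LPS, or 2 and 4 with scaling on protein-coding genes and 2 and 1 without the first KO LPS library. Fcgr1, an Fc receptor, was higher at 1945 against 1626 CPM (0.26 on the log2 scale, SE 0.0485, edgeR adjusted p 0.00112). Ddit4, an inhibitor of mTOR signalling, was lower at 7.57 against 11.2 CPM (-0.57, SE 0.113, edgeR adjusted p 0.00175). Pim1, a kinase gene and STAT3 target, was at 381 against 432 CPM (-0.18, SE 0.0502, edgeR adjusted p 0.0201), a call lost without the first or the third KO LPS library (0.0907 and 0.0661) or the second WT LPS library (0.0560), with no filter on low counts (0.122) and in the fit on the compared groups only (0.0550). Sbno2, a corepressor induced by IL-10, was at 336 against 376 CPM (-0.16, SE 0.0514, edgeR adjusted p 0.0434) and lost the call in 13 of 20 alternatives. Without LPS 2 were higher and 2 lower, or 1 and 3 with RLE scaling. Il1rn, the interleukin-1 receptor antagonist, was at 8.67 against 12.4 CPM without LPS (-0.52, SE 0.0669, edgeR adjusted p 7.23e-06) and at 2593 against 2757 CPM with LPS (-0.09, SE 0.0532, edgeR adjusted p 0.293). Nfkbid, an atypical NF-kB inhibitor like Bcl3, was higher without LPS at 50.2 against 41.0 CPM (0.29, SE 0.0722, edgeR adjusted p 0.00458). Tnfrsf1b, a TNF receptor, was lower without LPS at 505 against 624 CPM (-0.31, SE 0.0470, edgeR adjusted p 4.97e-05).

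Of 10 genes that IL-10 is known to repress, 6 were lower and 1 was higher in KO with LPS, beside 6.54% and 7.78% of all tested genes. The direction of the list held under every scaling tried. Tnf is one of the 6 and lies beside the deletion. Il6 was at 233 against 452 CPM (-0.96, SE 0.101, edgeR adjusted p 2.10e-06), a call that DESeq2 did not make (0.151). Il12b, the shared subunit of IL-12 and IL-23 and a target of NFIL3, was at 63.4 against 87.3 CPM (-0.46, SE 0.0805, edgeR adjusted p 5.58e-04). Cxcl1, a chemokine that draws neutrophils, was the exception, at 399 against 240 CPM (0.73, SE 0.0555, edgeR adjusted p 1.49e-08), and it was also higher without LPS (5.97 against 1.46 CPM, 2.03, SE 0.0974, edgeR adjusted p 4.53e-12). Without LPS, where Il10 was higher in KO, 4 of the 10 were lower and 1 was higher, beside 9.69% and 14.1% of all tested genes, and 3 in all passed without the first or the second KO UT library. The 4 include Tnf, beside the deletion, and Nos2, at no more than 11 counts in any UT library. With LPS, Il10 and 6 of the 10 were lower in KO.

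**Figure D5:**
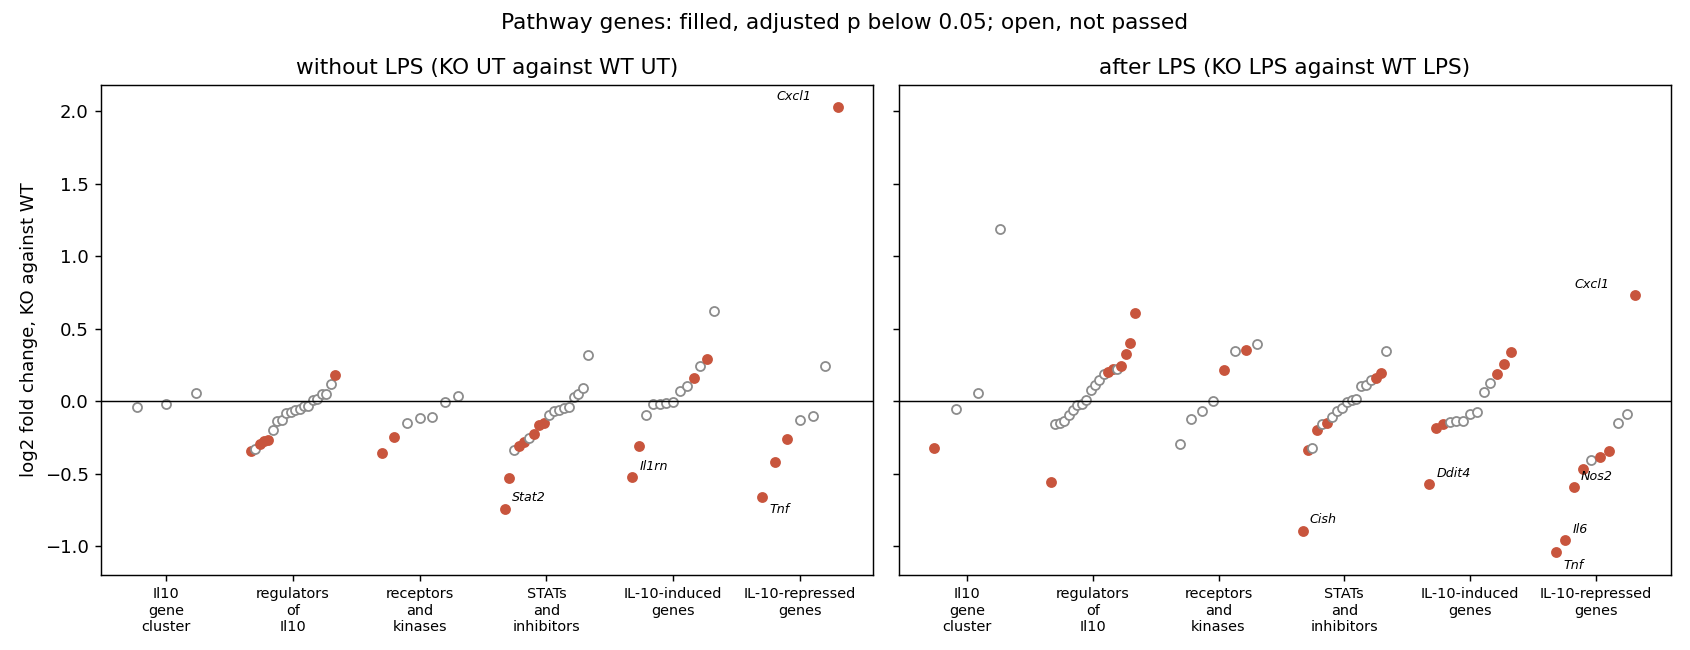
Fitted log2 fold change of KO against WT (linear axis, one point per gene) for the 6 pathway lists without LPS (left) and with LPS (right), filled where the edgeR adjusted p was below 0.05. Genes below 0.3 CPM in both groups of a panel are left out. With LPS most filled points of the IL-10-repressed list lie below 0, with Cxcl1 at 0.73 as the exception.

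The genes whose pattern was most like that of Il10 were sought among 9084 protein-coding genes. Likeness was Pearson's r of log2 CPM over the 12 libraries after the mean of each treatment had been subtracted. The highest were Tnc (0.970), Manf (0.964), Batf (0.952), Cd83 (0.951) and Scnm1 (0.951). Because they were selected on this pattern, their values are a description. Tnc, an extracellular matrix gene, was at 1.98 and 2.81 CPM in WT UT and KO UT and at 216 and 169 CPM in WT LPS and KO LPS. Manf, an endoplasmic reticulum stress gene, was at 46.0 and 63.8, then at 112 and 92.2 CPM. Cd83, an activation marker, was at 127 and 171, then at 128 and 110 CPM, so its WT level hardly moved with LPS. The points share libraries and scaling, and no p is given for r.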

How the data were processed

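Total RNA of BMDMs was measured in 12 libraries, 3 in each of 4 groups taken from the labels. The authors prepared stranded libraries with globin depletion, aligned reads to GRCm38 with HISAT2 2.1.0 and counted them per gene with featureCounts 2.0.0 (versions per the submitters' processing notes). The deposited values are raw counts per gene, unfiltered and not normalized. The annotation release, strand setting and handling of multi-mapping reads are not given in the sources used here, so reads of overlapping genes can be split, dropped or misplaced. Symbols and exon lengths came from GENCODE M21, which matched 48144 of 48526 identifiers.

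The counts were fitted with edgeR 4.0.16 (R 4.3.3, limma 3.58.1, quasi-likelihood test, TMM scaling) in one model of the 4 group means without covariates. filterByExpr (minimum count 10, minimum total 15) kept 15523 genes with 99.96% of counts, and p-values were adjusted by the Benjamini-Hochberg method over all of them. A gene passed at an adjusted p below 0.05, and the study's fold criterion (absolute log2 fold change above 1) is given beside it. The study used DESeq2, which was run here (1.42.0) as an alternative. The common biological coefficient of variation was 0.0712. The fit was tested on simulated data with the same spread for all genes. It recovered 100% of 100 genes changed by 1 on the log2 scale and 84% of 100 changed by 0.5. Of the 14350 genes, 13 were called falsely. Differences below 0.5, such as those called between genotypes for the 6 genes besides Il10, were not simulated. Nor was the wider spread of the WT LPS libraries. Log2 CPM used a prior count of 2. Totals of 26154533 to 36423921 counts set the counting precision, and counts without molecular identifiers are not independent molecules. Differences between replicates exceeded counting noise in all 12 pairs (chi-square per degree of freedom of 3.81 to 46.3), so none was treated as a library deposited more than once.

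The 7 genes, the 6 pathway lists and the 7 marker lists were chosen with earlier results of these data known. List genes were named by rule: for each pathway list, up to 2 higher and 2 lower among genes that passed in KO LPS against WT LPS or in the interaction at a mean of at least 1 CPM, together with Jak1, Tyk2 and Sbno2. Some genes that this rule names are not reported here. The genes most like Il10 needed a mean of at least 5 CPM. Nos2 was named after its values were seen. Each library carries a batch number in its labels, equal to its replicate number, so libraries are paired by label. Over 18 same-numbered pairs, deviations from group means correlated at r of -0.118 to 0.0997, and 0 exceeded 0.1. Alternatives were DESeq2, RLE, upper-quartile and protein-coding scaling, no filter, a filter at a mean of 1 CPM, the replicate number as a block, fits restricted to the groups compared, a fold criterion, and leaving out each library. Promoters came from RefSeq (GRCm38.p6). Plots used matplotlib 3.10.9 (Python 3.11.15).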

Additional observations from a re-analysis of the deposited data

Results flagged for a closer look

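The LPS response differed between genotypes by the interaction test of edgeR for 3 of the 7 genes besides Il10, and by description for Il10, whose KO libraries were all above WT without LPS and all below WT with LPS, and for which no p is given. The difference of KO from WT on the log2 scale was -1.43 for Il10, -0.23 for Il10rb, -0.46 for Bcl3 and -0.34 for Nfil3. Those of Il10rb and Bcl3 did not pass in all alternatives. Tnf had -0.38.

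The LPS change was also less positive in KO for Ddit4 (-0.81), Il12b (-0.71), Nfkbid (-0.43), Pim1 (-0.29) and Cxcl1 (-1.30). Cxcl1 was higher in KO than in WT both with and without LPS, so its smaller response went with a higher starting level. The value for Il12b did not pass without the second KO UT library (-0.44), the second WT LPS library or the second WT UT library.

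The LPS change was more positive in KO for Il6ra (0.71), Stat2 (0.59), Sp1 (0.52), Maf (0.44), Tnfrsf1b (0.43), Il1rn (0.43), Jak1 (0.32) and Fcgr1 (0.27). Those of Maf and Jak1 did not pass in all fits that left out one library. RLE scaling moved the interaction of all genes to a median of 0.07, from -0.01.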

How the results depend on the processing

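The fold criterion (absolute log2 fold change above 1) left 0 of the 7 genes between genotypes with or without LPS. It left 3 in the LPS response of KO. In the interaction it left 0 of the 6 genes besides Il10, whose value of -1.43 is a description. Of the pathway genes it left 1 between genotypes with LPS, 2 without and 1 in the interaction. It left 43 and 42 of them in the LPS responses of WT and KO. A fit on the compared groups only called 19 pathway genes in KO LPS against WT LPS, where 29 were called, and has fewer libraries. Leaving out one library gave 18 to 35 there, and in the interaction 1 to 3 of the 6 genes besides Il10, where 3 were called. The lowest values came without the second WT LPS library (18) or the first KO LPS library (19) for the pathway genes. For the 6 genes the count fell to 1 without the first or second KO LPS library, the first KO UT library or the second WT UT library. With the replicate block, 24 pathway genes were called in KO LPS against WT LPS and 2 of the 6 in the interaction. Among the 29 genes recomputed singly, the block ended the calls of Il10rb (interaction), Jak1, Ptpn6, Sbno2 and Stat2 (KO LPS against WT LPS) and Nos2 (KO UT against WT UT, adjusted p 0.0541), and changed no other call.

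For 29 single genes 2028 values were recomputed, of which 1870 kept their direction and side of the threshold, 106 lost a call, 30 gained one and 22 changed sign. Tnf kept every direction and call, and the differences of Il10, given without a test, kept their direction. Il10ra turned to -0.040 in KO UT against WT UT with DESeq2 and RLE scaling. In WT LPS against WT UT it turned to -0.029 with DESeq2 and RLE scaling, -0.035 with no filter, -0.037 on the compared groups and -0.17 with upper-quartile scaling (adjusted p 0.00309), and it ranged from -0.012 to 0.039 when one library was left out. In KO LPS against KO UT it turned to -0.084 with upper-quartile scaling. Upper-quartile scaling moved the median of all genes to -0.14 and -0.24 in the LPS responses of WT and KO, and scaling on protein-coding genes moved it to 0.12 in WT. Nfil3 turned to -0.011 in KO UT against WT UT with DESeq2 and RLE scaling. In the interaction Tyk2 turned to -0.016 with scaling on protein-coding genes, and Sbno2 to 0.017 with DESeq2 and RLE scaling. When one library was left out, the interaction ranged from -0.019 to 0.23 for Socs3 and from -0.019 to 0.074 for Tyk2, and KO UT against WT UT ranged from -0.093 to 0.033 for Maf, -0.040 to 0.0097 for Fcgr1, -0.93 to 0.81 for Il6 and -0.023 to 0.38 for Il12b. Apart from that for Il10ra with upper-quartile scaling, no value that changed sign passed the test on either side. The cause was not tested. At no more than 4 counts for Il19 and 11 for Nos2 in any UT library, depth limits their unstimulated differences.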
